A study of Mus musculus with 9 samples.

Results

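Transcripts of 8 core apoptosis genes, of 57010 genes in the count table, were examined in single mouse cortices: Bcl2, Bcl2l1, Mcl1, Bcl2l11, Bid, Bak1, Casp8 and Casp9. They were chosen as Bcl2 family and caspase genes that are not classic p53 targets and were matched by symbol to the Ensembl identifiers of the table. The rule uses no measured value, although it was written with earlier results of these embryos known. All 8 passed the filter of more than 10 reads in every embryo, the lowest count being 122, and so belong to the 13680 genes tested. RNA was sequenced from microdissected cortex of single embryos at E12.5, 3 per genotype and one poly(A) library per embryo. Control embryos (Ctrl) are labelled WT. Cnot3 cKO embryos (cKO) are Emx1-Cre;Cnot3 lox/lox and lose Cnot3, the gene of a CCR4-NOT deadenylase subunit, where Cre is active. Cnot3;Trp53 dcKO embryos (dcKO) carry Emx1-Cre, Trp53 lox/lox and Cnot3 lox/lox, and so lose both genes in the same cells. Emx1-Cre acts in radial glia of the dorsal telencephalon and their progeny, so vessels, blood, meninges and microglia within the tissue keep both genes.

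The Bcl2 family sets the threshold of the mitochondrial, or intrinsic, pathway of apoptosis. Pro-survival proteins (Bcl2, Bcl-xL from Bcl2l1, and Mcl1) hold the pore-forming effectors (Bak1, Bax, Bok) in check, and BH3-only proteins such as Bim (from Bcl2l11) and Bid relieve that restraint. Pores in the outer mitochondrial membrane release cytochrome c, which drives the apoptosome to activate caspase 9. Caspase 8 is the initiator of the death receptor, or extrinsic, pathway, and it cleaves Bid, which links both arms. Much of this control is exerted on the proteins, by binding and cleavage, and transcripts do not report it.

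Total counts per embryo lay between 21193798 and 28869816 in Ctrl, 24835674 and 25946075 in cKO and 23275370 and 45073349 in dcKO. Levels are given as CPM, read counts scaled to library size after TMM normalization. Cnot3 was at 107 ± 9.54 CPM (SD, n = 3) in Ctrl and at 15.0, 17.3 and 14.6 in cKO replicates 1 to 3. Trp53 was at 235 ± 19.5 CPM in Ctrl and at 167, 164 and 167 in cKO replicates 1 to 3, below every Ctrl embryo. In dcKO replicates 1 to 3 Cnot3 was at 7.33, 48.2 and 19.0 CPM and Trp53 at 15.1, 110 and 20.6. Replicate 2 of dcKO therefore kept more of both targeted transcripts than the other dcKO embryos, and values without single dcKO embryos are given beside the dcKO results of the members that moved. Markers of the labelled tissue (8 genes of the dorsal telencephalon, Emx1 and Pax6 among them) had reads in every genotype and summed to 1027 to 1377 CPM in Ctrl, 982 to 1131 in cKO and 1114 to 1751 in dcKO. Within that sum Emx1 was at 120, 69.4 and 43.8 CPM in Ctrl, 20.5, 20.4 and 23.7 in cKO and 7.94, 17.7 and 80.9 in dcKO, so that it lay lower in every cKO embryo than in any Ctrl embryo. Among the other cell types, the 6 microglia and macrophage markers summed to 37.3 to 45.5 CPM in Ctrl, 38.3 to 80.1 in cKO and 13.4 to 32.6 in dcKO. Endothelial markers (6 genes) summed to 213 to 275, 191 to 272 and 131 to 138 CPM, and meningeal markers (5 genes) to 625 to 690, 371 to 548 and 276 to 412 CPM in the same order of genotypes. Of the meningeal genes, Col1a1 and Col3a1 were below Ctrl in every cKO embryo, whereas Lum, Dcn and Foxc1 overlapped. Erythroid markers (5 genes) summed to 5768 to 8297, 7179 to 11102 and 3714 to 5314 CPM. The 5 subpallial markers stayed at or under 0.367 CPM in Ctrl and cKO and reached 6.39 CPM in dcKO replicate 2. The part of these cell types in the member results was not tested, and in bulk tissue fewer cells of a type and less RNA per cell cannot be told apart.

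In cKO cortices, Casp8 and Bid transcripts were present at higher and Bcl2 transcripts at lower levels in every mutant embryo than in every Ctrl embryo. The fitted difference was 2.496-fold for Casp8 and 1.96-fold for Bid, and Bcl2 was 2.02-fold lower. Of these, DESeq2 called Casp8 and Bcl2 beside 8.82% of all tested genes. edgeR's fit of all 9 embryos called no member, beside 0.0146% of all tested genes. For 57.2% of all tested genes, cKO and Ctrl embryos did not overlap. In dcKO cortices Casp8 was again above Ctrl in every embryo (2.58-fold), Bcl2l1 was below Ctrl in every embryo (1.69-fold lower), and Bid and Bcl2 overlapped with Ctrl. There 26.8% of all tested genes did not overlap with Ctrl. After a correction for GC content Bcl2l1 overlapped with Ctrl in dcKO and Bcl2 did not.

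The sequences upstream of the 3 members with the widest fitted difference in cKO are shown as the annotated promoter windows of these genes. Each is the 250 bases before the RefSeq transcription start on GRCm38.p6, read 5′ to 3′ on the gene's strand, with matches of the searched motifs in capitals. The bases just after this start lie in a GENCODE M21 transcript of the gene for Casp8 and Bid but were not found in one for Bcl2. Searched on both strands, so that reverse complements are capitalized too, were the TATA box (TATAAA), the CCAAT box (CCAAT), the GC box core (GGGCGG) and the p53 half-site. The windows are Casp8 at chr1:58802252-58802501 on the plus strand, Bid at chr6:120916825-120917074 on the minus strand and Bcl2 at chr1:106714291-106714540 on the minus strand.
Casp8: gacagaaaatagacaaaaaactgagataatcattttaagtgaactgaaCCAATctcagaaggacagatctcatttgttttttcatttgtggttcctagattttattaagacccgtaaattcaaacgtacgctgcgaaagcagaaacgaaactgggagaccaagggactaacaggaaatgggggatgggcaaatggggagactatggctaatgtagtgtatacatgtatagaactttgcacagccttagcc
Bid: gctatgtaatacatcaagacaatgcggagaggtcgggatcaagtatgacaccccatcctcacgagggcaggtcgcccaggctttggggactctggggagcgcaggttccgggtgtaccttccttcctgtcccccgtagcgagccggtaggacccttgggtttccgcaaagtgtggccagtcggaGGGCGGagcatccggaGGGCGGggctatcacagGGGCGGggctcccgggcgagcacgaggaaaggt
Bcl2: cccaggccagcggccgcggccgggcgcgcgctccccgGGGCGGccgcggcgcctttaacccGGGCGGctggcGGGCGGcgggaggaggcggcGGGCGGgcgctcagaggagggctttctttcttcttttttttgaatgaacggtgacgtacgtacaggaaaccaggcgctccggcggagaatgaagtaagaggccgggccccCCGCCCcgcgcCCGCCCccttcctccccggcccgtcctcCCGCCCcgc

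The upstream sequences of these genes differed in composition. GC content was 39.6% for Casp8, 63.6% for Bid and 74.8% for Bcl2, where the median of all 32851 windows in the RefSeq-based table was 52.4%. Casp8 held a single match, a CCAAT at bases -202 to -198 from the start. Bid held 3 and Bcl2 held 7 matches to the GC box core. Of all windows, 33.9% hold the CCAAT box, 32.7% the GC box core and 12.4% the TATA box. The p53 half-site, present in 7.13% of all windows, was matched in none of the 11 windows of the 8 members, and neither was the TATA box. These letter matches describe the windows and say nothing of which factors bind there.

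The pro-survival transcripts Mcl1 and Bcl2l1 were the most abundant members. Per exon length (RPKM, the CPM divided by the length of all annotated exons in kilobases), Mcl1 was the most abundant of the 8 members in Ctrl at 41.8 ± 3.17 RPKM (SD, n = 3). Bcl2l1 followed at 20.2 ± 1.86 and Bak1 at 10.51 ± 0.742 RPKM, and the ranges of these 3 over the Ctrl embryos did not overlap. Casp9 stood at 5.503 ± 0.0799 and Bcl2l11 at 3.22 ± 0.183 RPKM. Bcl2, Bid and Casp8 lay together at the bottom of the order, at 2.61 ± 0.180, 2.602 ± 0.471 and 2.53 ± 0.386 RPKM, with overlapping ranges. In cKO the mean of Casp8 lay next below that of Bak1 in this order, at 6.33 ± 0.619 RPKM, and Bcl2 was the least abundant, at 1.29 ± 0.0388. In dcKO the means of Casp8 and Bcl2 were 6.55 ± 2.99 and 1.63 ± 0.857 RPKM, but single embryos differed in order: Casp8, at 9.96, 4.36 and 5.32 RPKM in replicates 1 to 3, lay below Casp9 in replicates 2 and 3, and in replicate 2 the least abundant member was Bid.

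**Figure D1:**
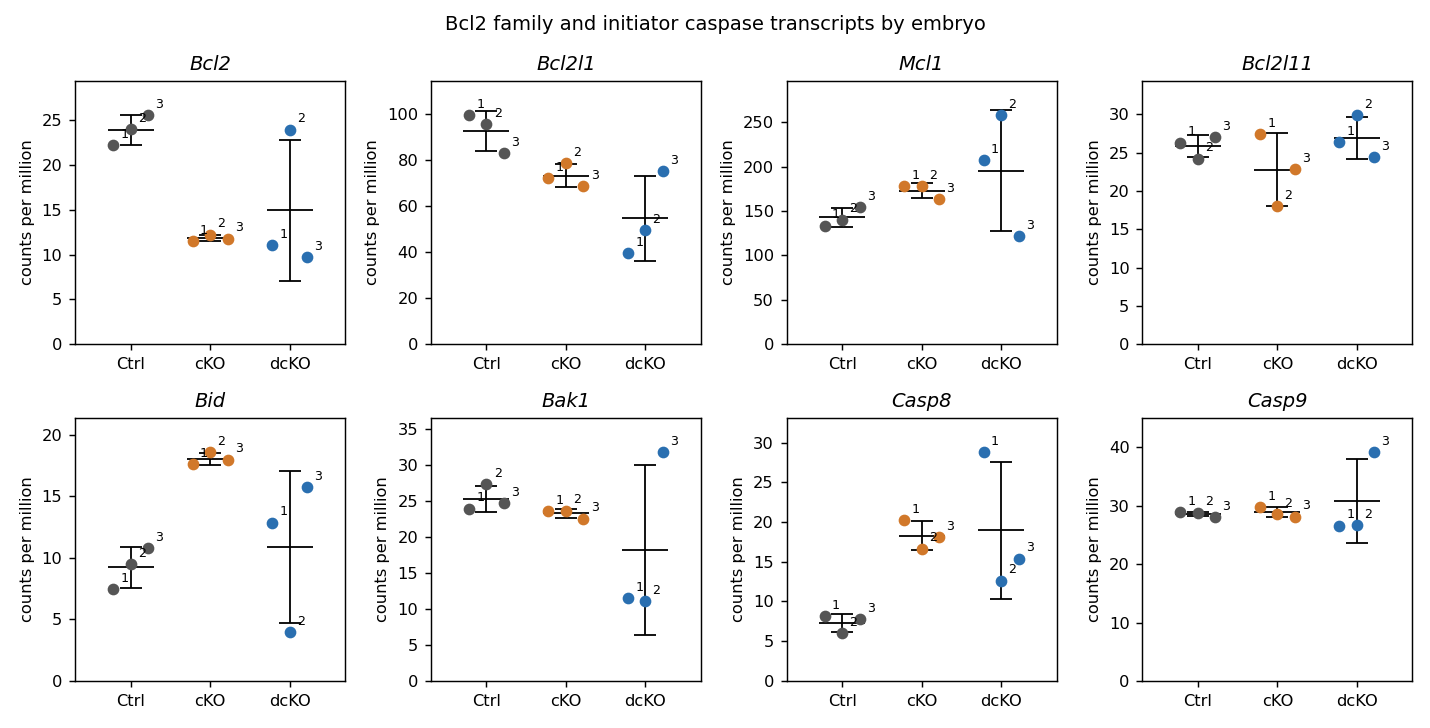
CPM (vertical axes, from 0) of each member in the 9 embryos, with points numbered by replicate, horizontal bars for the mean and error bars for the SD (n = 3 per genotype). Casp8 and Bid lie above and Bcl2 below Ctrl in all 3 cKO embryos, while dcKO replicates 2 and 3 stand apart from replicate 1 or from each other for most genes.

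Bcl2, the founding anti-apoptotic member of the family, was at 22.3, 24.0 and 25.6 CPM in Ctrl replicates 1 to 3. It was at 11.5, 12.2 and 11.8 CPM in cKO and at 11.1, 24.0 and 9.77 CPM in dcKO. All cKO embryos thus lay well under the Ctrl range with little spread, and dcKO replicate 2 alone among the mutant embryos sat within the Ctrl range. For Bcl2 the log2 fold change in cKO was -1.01 (SE 0.33, edgeR adjusted p = 0.0917), and the DESeq2 adjusted p was 0.0275. In dcKO it was -0.68 (SE 0.33, edgeR adjusted p = 0.198). Leaving out dcKO replicate 2 gave -1.20 (SE 0.20, edgeR adjusted p = 0.00684), and leaving out dcKO replicate 3 gave -0.45 (SE 0.29, edgeR adjusted p = 0.215).

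Bcl2l1, whose main product Bcl-xL protects newborn neurons, was at 99.5, 95.7 and 83.2 CPM in Ctrl. It was at 72.4, 78.9 and 68.7 CPM in cKO and at 39.5, 49.6 and 75.4 CPM in dcKO. Every mutant embryo lay below every Ctrl embryo, with dcKO replicates 1 and 2 lowest and dcKO replicate 3 within the cKO range. It changed by a log2 fold of -0.34 in cKO (SE 0.23, edgeR adjusted p = 0.368) and -0.76 in dcKO (SE 0.23, edgeR adjusted p = 0.0731, DESeq2 adjusted p = 0.0196). A correction for GC content brought these to -0.03 and -0.25, and without dcKO replicate 3 the value in dcKO was -1.06 (SE 0.15, edgeR adjusted p = 0.000547). Leaving out replicate 2 gave -0.69 (edgeR adjusted p = 0.0865), and leaving out replicate 1 gave -0.57 (edgeR adjusted p = 0.209).

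Mcl1, a short-lived pro-survival protein on which neural progenitors depend, was at 134, 140 and 155 CPM in Ctrl. It was at 178, 178 and 163 CPM in cKO and at 207, 258 and 122 CPM in dcKO. All cKO embryos were above Ctrl by a small margin, whereas in dcKO replicates 1 and 2 were above all Ctrl embryos and replicate 3 below all of them. Its log2 fold change was 0.28 in cKO (SE 0.24, edgeR adjusted p = 0.487) and 0.45 in dcKO (SE 0.24, edgeR adjusted p = 0.234). Leaving out dcKO replicate 3 gave 0.70 in dcKO (SE 0.14, edgeR adjusted p = 0.00208), and leaving out replicate 2 gave 0.20.

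Summed per length, the 3 transcripts came to 63.2 to 66.2 RPKM in Ctrl, 64.0 to 70.7 in cKO and 53.2 to 88.9 in dcKO. Mcl1 made up 61.8% to 68.4% of this sum in Ctrl and 73.8% to 75.3% in cKO. In dcKO replicates 1 to 3 its share was 86.1%, 84.9% and 67.1%. The ratio of Mcl1 to Bcl2l1 per length was 1.80 to 2.498 in Ctrl and 3.03 to 3.30 in cKO, so these ranges did not overlap. These ratios are not corrected for GC content, which brought the cKO log2 fold changes to -0.03 for Bcl2l1 and 0.20 for Mcl1. The uncorrected ratio of Mcl1 to Bcl2l1 was 7.04, 6.97 and 2.17 in dcKO replicates 1 to 3, with replicate 3 inside the Ctrl range.

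**Figure D2:**
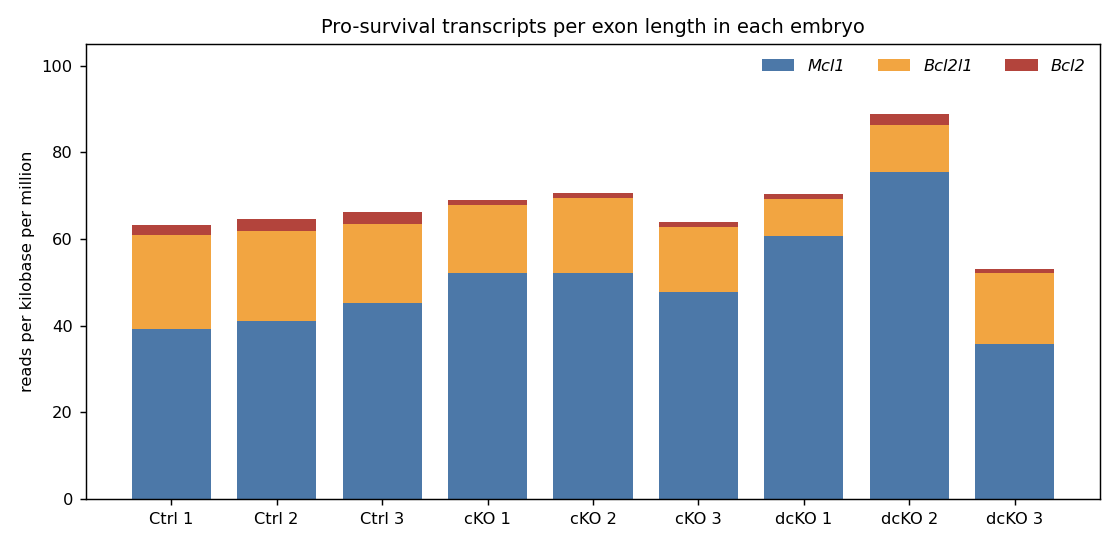
Stacked levels of Mcl1, Bcl2l1 and Bcl2 in RPKM (vertical axis, from 0) in each of the 9 embryos. The sum stays between 63.2 and 70.7 RPKM in the Ctrl and cKO embryos, and the Bcl2l1 segment is smallest in dcKO replicates 1 and 2.

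Among the BH3-only members, Bid, the substrate that caspase 8 cleaves to engage mitochondria, was at 7.46, 9.47 and 10.8 CPM in Ctrl. It was at 17.6, 18.6 and 18.0 CPM in cKO and at 12.9, 3.96 and 15.8 CPM in dcKO. The cKO embryos were all above Ctrl, dcKO replicates 1 and 3 lay between Ctrl and cKO, and dcKO replicate 2 was the lowest of all 9 embryos. The log2 fold change of Bid in cKO was 0.97 (SE 0.43, edgeR adjusted p = 0.180, DESeq2 adjusted p = 0.114), and in the fit of the 6 Ctrl and cKO embryos alone it was 0.97 with SE 0.18 and edgeR adjusted p = 0.00148. In dcKO it was 0.23 (SE 0.43, edgeR adjusted p = 0.740), with 0.63 without dcKO replicate 2 and -0.14 without dcKO replicate 3. Bid was the one member with all dcKO embryos under the lowest cKO embryo (log2 fold change -0.74, SE 0.43, edgeR adjusted p = 0.889), and this value was -0.34 without dcKO replicate 2 and -1.10 without dcKO replicate 3.

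Bcl2l11, which encodes the BH3-only protein Bim, was at 26.3, 24.2 and 27.1 CPM in Ctrl. It was at 27.5, 18.0 and 22.9 CPM in cKO and at 26.3, 29.9 and 24.5 CPM in dcKO, so all groups overlapped. Its log2 fold change was -0.18 in cKO (SE 0.22, edgeR adjusted p = 0.613) and 0.055 in dcKO (SE 0.21, edgeR adjusted p = 0.879).

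Bak1, the effector of the list, was at 23.9, 27.3 and 24.7 CPM in Ctrl. It was at 23.6, 23.6 and 22.5 CPM in cKO and at 11.5, 11.1 and 31.8 CPM in dcKO. The cKO embryos lay just under the Ctrl range, whereas dcKO replicates 1 and 2 were far below it and dcKO replicate 3 was above it. The log2 fold change was -0.12 in cKO (SE 0.37, edgeR adjusted p = 0.860) and -0.48 in dcKO (SE 0.37, edgeR adjusted p = 0.407). Without dcKO replicate 3 the value in dcKO was -1.16 (SE 0.18, edgeR adjusted p = 0.0007), and it was -0.23 without replicate 2 (edgeR adjusted p = 0.685) and -0.24 without replicate 1 (edgeR adjusted p = 0.753). After GC correction the signs turned, to 0.29 in cKO and 0.014 in dcKO.

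Casp8, the initiator caspase of death receptors, was at 8.11, 6.05 and 7.82 CPM in Ctrl. It was at 20.2, 16.7 and 18.1 CPM in cKO and at 28.8, 12.6 and 15.4 CPM in dcKO. All 6 mutant embryos exceeded all Ctrl embryos, and dcKO replicate 2 was the lowest of them. The log2 fold change was 1.32 in cKO (SE 0.33, edgeR adjusted p = 0.0550, DESeq2 adjusted p = 0.00313) and 1.37 in dcKO (SE 0.33, edgeR adjusted p = 0.0511, DESeq2 adjusted p = 0.00240). Without dcKO replicate 1, the embryo with the highest level, the value in dcKO was 0.93 (edgeR adjusted p = 0.133). Leaving out dcKO replicate 2 gave 1.59 (edgeR adjusted p = 0.00941), and leaving out dcKO replicate 3 gave 1.496 (edgeR adjusted p = 0.00352).

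Casp9, the initiator caspase activated on the apoptosome, was at 28.9, 28.8 and 28.1 CPM in Ctrl. It was at 29.8, 28.6 and 28.1 CPM in cKO and at 26.6, 26.7 and 39.2 CPM in dcKO. Apart from dcKO replicate 3, this was the most even of the 8 members across embryos. Its log2 fold change was 0.01 in cKO (SE 0.21, edgeR adjusted p = 0.974) and 0.11 in dcKO (SE 0.20, edgeR adjusted p = 0.746). Per length, Casp9 exceeded Casp8 by 1.98-fold to 2.65-fold in the Ctrl embryos, and in cKO the order was the reverse, with Casp8 to Casp9 ratios of 1.05 to 1.22. In dcKO replicates 1 to 3 this ratio was 1.95, 0.848 and 0.706.

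**Figure D3:**
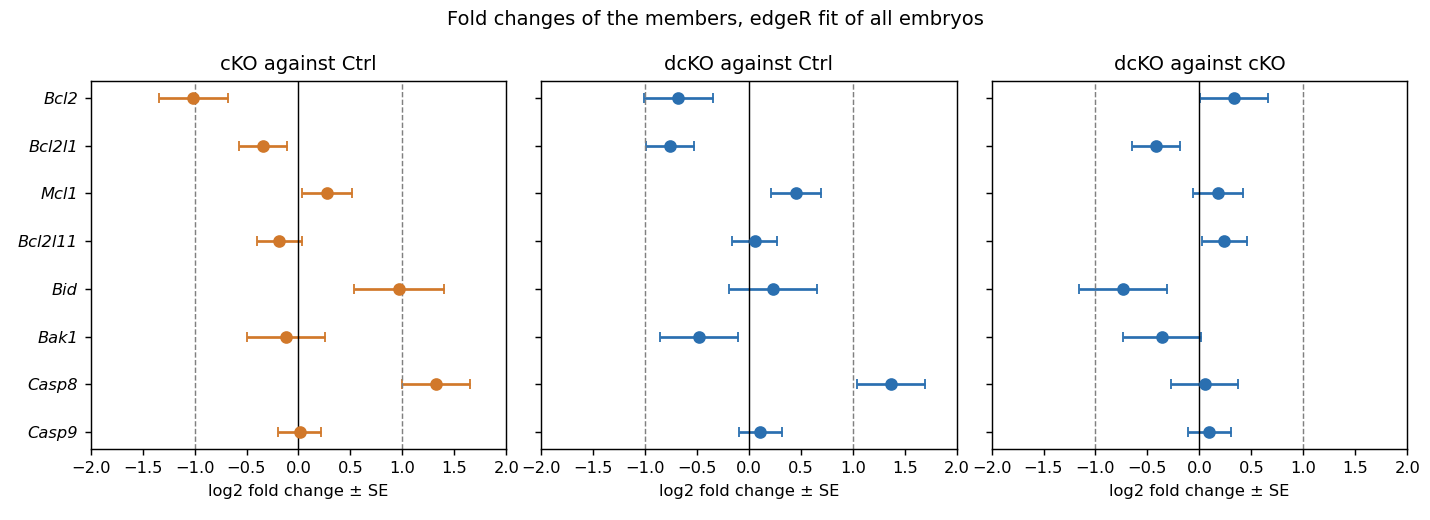
Log2 fold changes of the 8 members from edgeR's fit of all 9 embryos (horizontal axes, points with SE bars) for cKO against Ctrl, dcKO against Ctrl and dcKO against cKO, with dashed lines at a 2-fold change. Casp8 lies near 1.3 against Ctrl in both mutants and near 0 between them, and Casp9 lies near 0 throughout.

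Read against all tested genes, the members are counted as follows. A call needed a Benjamini-Hochberg adjusted p under 0.05 together with a change of more than 1 in log2 units, either way. edgeR called 0 of the 8 members in cKO, where it called 0.0146% of all tested genes and 3693 genes had an unadjusted p under 0.05. DESeq2 called 2 members in cKO, Casp8 up and Bcl2 down, beside 8.82% of all tested genes. An edgeR fit restricted to those 6 embryos called the same 2 members beside 12.9% of all tested genes. In cKO, 6 of the 8 members did not overlap with Ctrl (Casp8, Bid and Mcl1 above, Bcl2, Bcl2l1 and Bak1 below), beside 57.2% of all tested genes. The median log2 fold change was -0.05 over the members and 0.01 over all tested genes. An exact permutation test of a single gene could not go below p = 0.10 with 3 embryos against 3.

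In dcKO, edgeR called 0 members and 0% of all tested genes, although 3994 genes had an unadjusted p under 0.05. DESeq2 called 1 member, Casp8, beside 8.46% of all tested genes. Casp8 above and Bcl2l1 below, 2 of the 8 members, did not overlap with Ctrl, beside 26.8% of all tested genes. Which members were called rested on single embryos. Without dcKO replicate 1 edgeR called 0 members and 0% of all tested genes, with Casp8 at 0.93. Without dcKO replicate 2 edgeR called Casp8 and Bcl2, beside 9.72% of all tested genes, and without dcKO replicate 3 it called Casp8, Bcl2l1 and Bak1, beside 23.7%. The median log2 fold change was 0.08 over the members and 0.11 over all tested genes. Both mutants were compared with the same Ctrl embryos, so their values are not independent of each other.

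**Figure D4:**
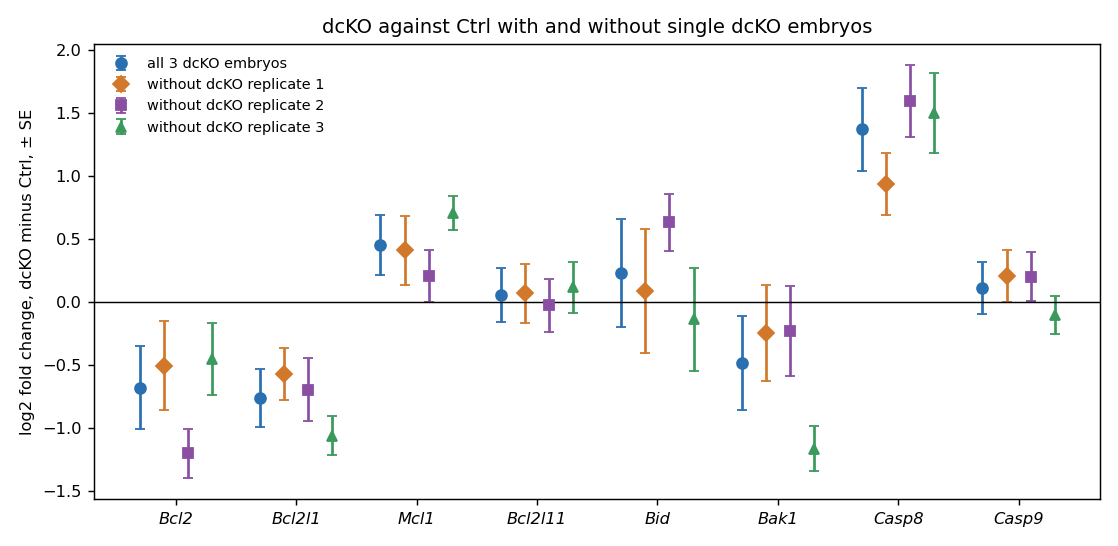
Log2 fold changes of the 8 members in dcKO against Ctrl with SE bars (vertical axis), from edgeR's fit of all embryos and from fits without dcKO replicate 1, 2 or 3. Casp8 lies at 0.93 without replicate 1 and between 1.37 and 1.59 in the other fits, whereas Bcl2 lies lower without replicate 2 and Bak1 and Bcl2l1 lie lower without replicate 3.

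A direct comparison of dcKO with cKO asks what the loss of Trp53 adds to the loss of Cnot3. The mutants did not differ in Trp53 alone. Cnot3 was at 48.2 CPM in dcKO replicate 2 and at 14.6 to 17.3 in cKO, and Trp53 was still at 110 CPM in that dcKO embryo. edgeR called 0 members, beside 0.0146% of all tested genes (605 genes had an unadjusted p under 0.05), and DESeq2 called 0 members, beside 0.38%. Casp8 differed by a log2 fold change of 0.05 (SE 0.32), Bcl2 by 0.33 (SE 0.33) and Bcl2l1 by -0.42 (SE 0.23). Signs turned without single embryos, Casp8 to -0.39 without dcKO replicate 1 and Bcl2 to -0.185 without dcKO replicate 2. Bcl2l1 was at -0.23 without dcKO replicate 1 and at -0.72 without dcKO replicate 3 (edgeR adjusted p = 0.0151). These values missed the threshold, which does not show that the mutants were alike. Bid alone, 1 of the 8 members, did not overlap between the mutants, beside 6.24% of all tested genes. Without dcKO replicate 3, edgeR called Bak1 (log2 fold change -1.04, SE 0.18, edgeR adjusted p = 0.0137), beside 9.04% of all tested genes.

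Classic p53 targets of apoptosis are given for comparison. Of 12 listed, 9 were tested, and in the fit of all 9 embryos each had a log2 fold change below 0 in dcKO against cKO, with a median of -0.998, where 41.3% of all tested genes were below 0. Without dcKO replicate 3, Apaf1 turned to 0.023. In dcKO against cKO edgeR called 1 of the targets, beside 0.0146% of all tested genes, and DESeq2 called 2 down, beside 0.351%. The 8 members had 5 values above and 3 below 0, with a median of 0.07, and all tested genes a median of 0.07. In cKO against Ctrl, 7 of the 9 targets were above 0 (median 0.51), beside 50.6% of all tested genes, and DESeq2 called 4 of them up, beside 4.94%. edgeR called 1 of them, beside 0.0146%. In dcKO against Ctrl, 5 were above and 4 below 0 (median 0.24), and DESeq2 called 2 of them down, Aen and Pidd1, beside 3.79% of all tested genes. edgeR called 0 of them there, beside 0% of all tested genes. Pidd1 overlapped with Ctrl, and a GC correction took it from -1.01 to -0.37 (edgeR adjusted p = 0.301). Aen went from -1.20 to -1.06 (edgeR adjusted p = 0.0840). Apaf1, Aen and Pidd1 are named here after their values were seen. Bax, Bbc3, Pmaip1, Apaf1, Fas and Tnfrsf10b are on this list and on the pathway list that follows. The targets are known from p53 biology, and the list was written with earlier results of these embryos known.

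Around the members, 34 further genes of the pathway were listed by role, and 29 of them passed the filter. DESeq2 called 1 of these up and 2 down in cKO, 1 down in dcKO and 1 lower in dcKO than in cKO, beside 8.82%, 8.46% and 0.38% of all tested genes. edgeR's fit of all 9 embryos called none in any comparison, beside 0.0146%, 0% and 0.0146% of all tested genes in the same order. The median log2 fold change of the 29 was 0.14 in cKO and 0.24 in dcKO. The 5 genes without a test were Bbc3, Pmaip1, Bik, Endog and Fas, each with 10 reads or fewer in at least 1 embryo.

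Of the 2 further effectors tested, Bok, which can form pores without Bak and Bax, was called lower by DESeq2 in both mutants. It was at 51.7, 53.4 and 36.3 CPM in Ctrl, 21.02, 14.0 and 19.6 in cKO and 12.7, 15.5 and 26.2 in dcKO, so every mutant embryo lay below every Ctrl embryo. For Bok the log2 fold change was -1.37 in cKO (SE 0.31, edgeR adjusted p = 0.0514, DESeq2 adjusted p = 0.00102) and -1.38 in dcKO (SE 0.31, edgeR adjusted p = 0.0507, DESeq2 adjusted p = 7.97e-04). A correction for GC content brought these to -0.56 (edgeR adjusted p = 0.203) and -0.28 (edgeR adjusted p = 0.567). Leaving out dcKO replicates 1, 2 or 3 gave -1.18, -1.28 and -1.74 in dcKO. Among 3 further BH3-only genes tested, Hrk, a BH3-only gene of neurons, was called lower in cKO by DESeq2. Its levels were 5.79, 7.84 and 5.08 CPM in Ctrl and 2.48, 2.71 and 3.54 in cKO (log2 fold change -1.10, SE 0.31, edgeR adjusted p = 0.0689, DESeq2 adjusted p = 0.00647). In dcKO Hrk was at 4.08, 4.96 and 4.39 CPM, also below every Ctrl embryo, but was not called (log2 fold change -0.48, SE 0.31, edgeR adjusted p = 0.321, DESeq2 adjusted p = 0.244). The direct difference of dcKO from cKO was 0.62 (SE 0.31, edgeR adjusted p = 0.889).

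In the death receptor arm, 7 of 8 genes were tested. Tnfrsf10b, a death receptor that is itself a p53 target, was at 9.26, 6.84 and 8.15 CPM in Ctrl, 20.9, 23.8 and 17.8 in cKO and 13.0, 7.92 and 7.78 in dcKO. DESeq2 called it up in cKO (edgeR log2 fold change 1.36, SE 0.29, edgeR adjusted p = 0.0509, DESeq2 adjusted p = 3.11e-04) and lower in dcKO than in cKO (edgeR log2 fold change -1.12, SE 0.28, edgeR adjusted p = 0.748, DESeq2 adjusted p = 0.0277). This receptor and Casp8, which acts below it, were both above Ctrl in every cKO embryo. In dcKO Tnfrsf10b overlapped with Ctrl, whereas Casp8 did not. Neither tool called any of the 6 other caspase and nuclease genes, the 4 caspase inhibitors or the 6 tested apoptosome and mitochondrial release genes in any comparison, at the 2-fold limit. Over all tested genes DESeq2 called 8.82% in cKO, 8.46% in dcKO and 0.38% in dcKO against cKO, and edgeR called 0.0146%, 0% and 0.0146%.

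**Figure D5:**
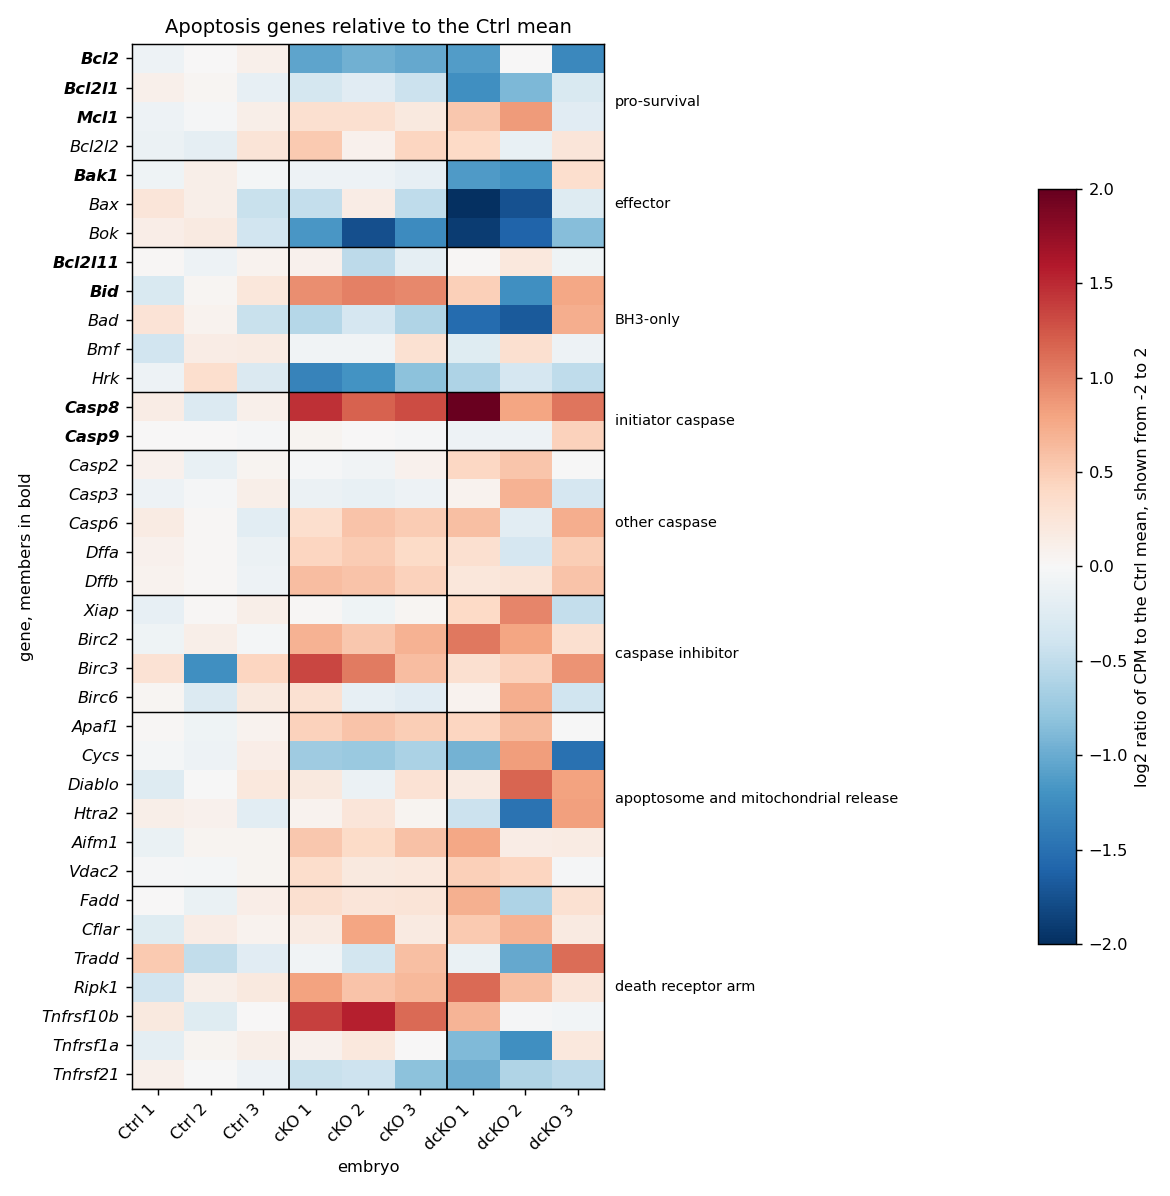
Log2 ratio of CPM to the Ctrl mean (colour, shown from -2 to 2) for the 8 members (bold) and further apoptosis genes of the pathway list, by role, in the 9 embryos. Casp8 is above the Ctrl mean in all 6 mutant embryos, Bok is below it in all of them, and the dcKO columns differ from each other more than those of the other genotypes.

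As a description of likeness, the log2 CPM of each member was correlated with that of 36 genes, the other members and the 29 tested pathway genes, across the 9 embryos, which differ in genotype and depth. Bcl2 was most like Cycs (Pearson r = 0.90), Bcl2l1 most like Bax (0.96), Mcl1 most like Vdac2 (0.91) and Bak1 most like Tnfrsf1a (0.95). Casp8 was most like Aifm1 (0.90), Casp9 most like Bad (0.75) and Bcl2l11 most like Birc6 (0.67). Between members, Bcl2l1 and Bak1 were most alike (0.87) and Mcl1 and Bak1 least alike (-0.90), and for the latter pair dcKO replicates 1 and 2 lay at one end and dcKO replicate 3 at the other.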

How the data were processed

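Cortex RNA from 9 single mouse embryos, 3 per genotype, was measured by RNA-seq. The authors deposited raw counts per gene, made from paired-end stranded poly(A) libraries with adapters trimmed by Cutadapt, aligned to mm39 with STAR and assigned with featureCounts. Versions, the annotation and the strand setting are not given in the sources used here. Counts as deposited were tested in R 4.3.3 with edgeR 4.0.16 (TMM, quasi-likelihood, one model of all 9 embryos, no covariate) on the 13680 genes whose count exceeded 10 in each embryo. DESeq2 1.42.0, limma 3.58.1 voom and the other alternatives of the closing section were run on the same table. P-values were adjusted by the Benjamini-Hochberg method over all tested genes, and SEs were derived from the F statistics (absolute estimate over root F). Exon lengths and GC came from GENCODE M21 and promoter windows from RefSeq on GRCm38.p6, a build other than that of the counts. Scripts were checked on simulated data. Members, lists and tests were chosen with earlier results of these data known. Named by rule were every member, Cnot3 and Trp53, and listed pathway genes called by either tool whose groups did not overlap. Also named were genes most like a member, genes on both lists, genes without a test, single marker genes, and Apaf1, Aen and Pidd1. Some values of listed genes are not reported here. Replicates are different embryos of 1 genotype.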

Additional observations from a re-analysis of the deposited data

How the results depend on the processing

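No member was called by edgeR's fit of all embryos (beside 0% to 0.0146% of all tested genes), and the number called varied with the tool and the embryos. In cKO it was 2 with DESeq2 (with or without the 2-fold limit), limma voom, the 6 embryos compared alone and a GC correction, each time Bcl2 and Casp8, and 1 without a filter. Over all tested genes these called 8.82% (16.7% without the limit), 13.7%, 12.9%, 4.92% and 3.03%. It was 0 to 2 with each embryo left out, the calls arising where dcKO replicate 1, 2 or 3 was left out (6.72%, 8.34% and 10.8% of all tested genes). It stayed 0 with RLE factors (0.0146% of all tested genes), filterByExpr (0.0118%) and a GC correction with the replicate block (0.0292%). In dcKO it was 1 with DESeq2 (8.46% of all tested genes) and without a filter (2.58%), 4 with limma voom (26.8%), 2 with DESeq2 by adjusted p alone (17.7%), and 0 to 3 with each embryo left out (0% to 23.7%). It stayed 0 there with RLE factors, filterByExpr and the 6 embryos compared alone (0% each). It also stayed 0 with a GC correction, without the block (1.47%) or with it (0%). In dcKO against cKO it was 0 to 1 with each embryo left out (0% to 9.04%). In fits chosen after seeing the data, DESeq2 by adjusted p alone called 3 members in cKO (27.1% of all tested genes) and 3 in dcKO (25.3%) without dcKO replicate 2, and 5 in cKO (50.1%) and 1 in dcKO (5.83%) from only the 6 embryos compared. The count of members whose groups did not overlap was 6 to 7 in cKO, 2 to 5 in dcKO and 1 to 5 in dcKO against cKO with each embryo left out, beside 61.7% to 67.0%, 28.9% to 63.0% and 8.58% to 52.4% of all tested genes. With a GC correction it was 3 in dcKO (Bcl2, Casp8 and Casp9, beside 25.5%) and 3 in dcKO against cKO (beside 9.40%). Without a filter it was 5 in cKO, where Mcl1 overlapped (beside 35.4%).

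Replicate numbers do not pair the embryos: the mean r of same-numbered embryos was -0.169, and 0 of 9 embryos correlated best with their own number. With the replicate number as a block, 0 members and 0% of all tested genes were called in any comparison, and the Casp8 log2 fold change in dcKO against cKO became -0.024.

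Of 544 single-gene values under alternatives, 471 kept direction and call, 42 became called and 31 changed sign. With a GC correction, alone and with the block, Bak1 was 0.287 and 0.294 in cKO and 0.014 and 0.017 in dcKO, Bcl2l11 -0.084 and -0.078 in dcKO, and Casp8 -0.032 and -0.103 in dcKO against cKO. Without a filter and with filterByExpr, Casp9 was -0.047 and -0.048 in cKO and Bcl2l11 -0.043 and -0.028 in dcKO. With limma voom, Casp9 was -0.074 in dcKO and -0.096 in dcKO against cKO. With each embryo left out, the ranges were, in cKO, -0.011 to 0.020 for Casp9, and, in dcKO, -0.101 to 0.204 for Casp9, -0.027 to 0.119 for Bcl2l11 and -0.138 to 0.630 for Bid. Against cKO the ranges were -0.185 to 0.564 for Bcl2, -0.072 to 0.426 for Mcl1, -0.387 to 0.274 for Casp8 and -0.114 to 0.192 for Casp9. With DESeq2 without dcKO replicate 2, Bcl2 was -0.212 and Mcl1 -0.099 against cKO, and Bcl2l11 -0.063 against Ctrl. Between embryos that share a number in their codes, whose meaning is not stated, Casp9 was -0.023 in cKO, and in dcKO, which has 1 such pair, Mcl1 was -0.345, Bcl2l11 -0.146 and Bak1 0.366. In that pair, without a change of sign, Bcl2l1 was -0.142 (-0.76 in the fit of all embryos), Bcl2 -1.386 (-0.68) and Casp8 0.975 (1.37). The cause of these changes was not tested.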
